A study of Bos taurus with 15 samples.

Results

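Transcripts of 9 genes that build the junctions between epithelial cells were followed in pools of bovine blastocysts. The genes were CDH1, CTNNB1 and CTNNA1 of the adherens junction, TJP1, OCLN, F11R, CLDN4 and CLDN7 of the tight junction, and EPCAM. They were taken by symbol from the filtered count table, which holds 10832 genes, and all 9 were found in it under 1 row each. Embryos of Bos taurus were fertilized and cultured in vitro, either without supplementation (Co), with freshly isolated oviductal extracellular vesicles (FeEV treatment) or with the same kind of vesicles after freezing and thawing (FoEV treatment). The vesicles came from oviducts of slaughtered cows in the postovulatory stage, and the FeEV and FoEV preparations were portions of the same material. All embryos were day 7 blastocysts by their labels, and each treatment had 5 libraries, each prepared from 1 ng of RNA of 1 pool of 8 to 14 embryos. The sequenced pools were those with the best RNA, and whether pools of a treatment came from separate cultures is not stated, so p-values measure the spread between pools, which may be partly technical. In a whole embryo, fewer cells of a type and less RNA per cell cannot be told apart.

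The first epithelium of the embryo is the trophectoderm, the outer cell layer of the blastocyst. Its cells are held together by the adherens junction, where E-cadherin (CDH1) binds E-cadherin of the neighbouring cell and is tied through β-catenin (CTNNB1) and α-catenin (CTNNA1) to the actin cytoskeleton. Above it lies the tight junction, in which claudins, occludin (OCLN) and the junctional adhesion molecule A (F11R) are anchored to the scaffold protein ZO-1 (TJP1). This seal lets the trophectoderm retain fluid, so that the blastocoel can form and expand. EPCAM is an adhesion molecule of epithelia and of pluripotent cells that is known to bind claudin-7.

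Library totals ran from 2136713 to 4058887 counted reads, and the FoEV libraries were all deeper (3392613 or more) than the deepest Co library (2977004). Levels are given as CPM, each count relative to the total of its library after TMM scaling. This unit does not correct for transcript length, so levels of different genes are not compared. Counts of the 9 genes ran from 153 reads (CLDN7 in FeEV replicate 4) to 3739 (CDH1 in FoEV replicate 1). Differences are log2 fold changes with their standard errors (SE) from 1 edgeR fit across all genes, with p-values of its quasi-likelihood test. Adjusted p-values are Benjamini-Hochberg values over the 10832 genes, and genes with a value under 0.05 are named as called. Markers of the expected cell lineages were present in every treatment: trophectoderm markers (KRT8, KRT18, GATA3 and 7 others) summed to between 7156 and 12418 CPM, inner cell mass markers (POU5F1, NANOG and 8 others) to between 539 and 819 CPM, and hypoblast markers (GATA6, PDGFRA and 8 others) to between 823 and 1202 CPM. None of these 30 markers was at 0 in all libraries. FGF4, FOXA2, SOX17 and TDGF1 were outside the filtered table, with 7, 8, 90 and 136 reads over all libraries.

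None of the 9 junction genes was called in any comparison. For FoEV treatment vs. Co, 0 of 9 had an adjusted p under 0.05, where 0.00923% of all genes, a single gene, were called. At an unadjusted p under 0.05, 1 of 9 was lower in FoEV-treated embryos (OCLN) and 0 were higher, where 6.88% of all genes were lower and 8.18% higher. In FeEV treatment vs. Co, 0 of 9 were called, with a background of 0%, and 0 of 9 passed the unadjusted threshold, which 1.83% of all genes passed as higher and 2.32% as lower. Between FoEV and FeEV treatment, 0 of 9 were called (background 0%), and 1 of 9 was lower at an unadjusted p under 0.05 (CTNNB1), where 3.69% of all genes were lower and 4.83% higher. No junction gene had treatments whose libraries did not overlap, a separation that 2.6% of all genes showed in FoEV vs. Co, 0.951% in FeEV vs. Co and 1.5% in FoEV vs. FeEV.

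**Figure D1:**
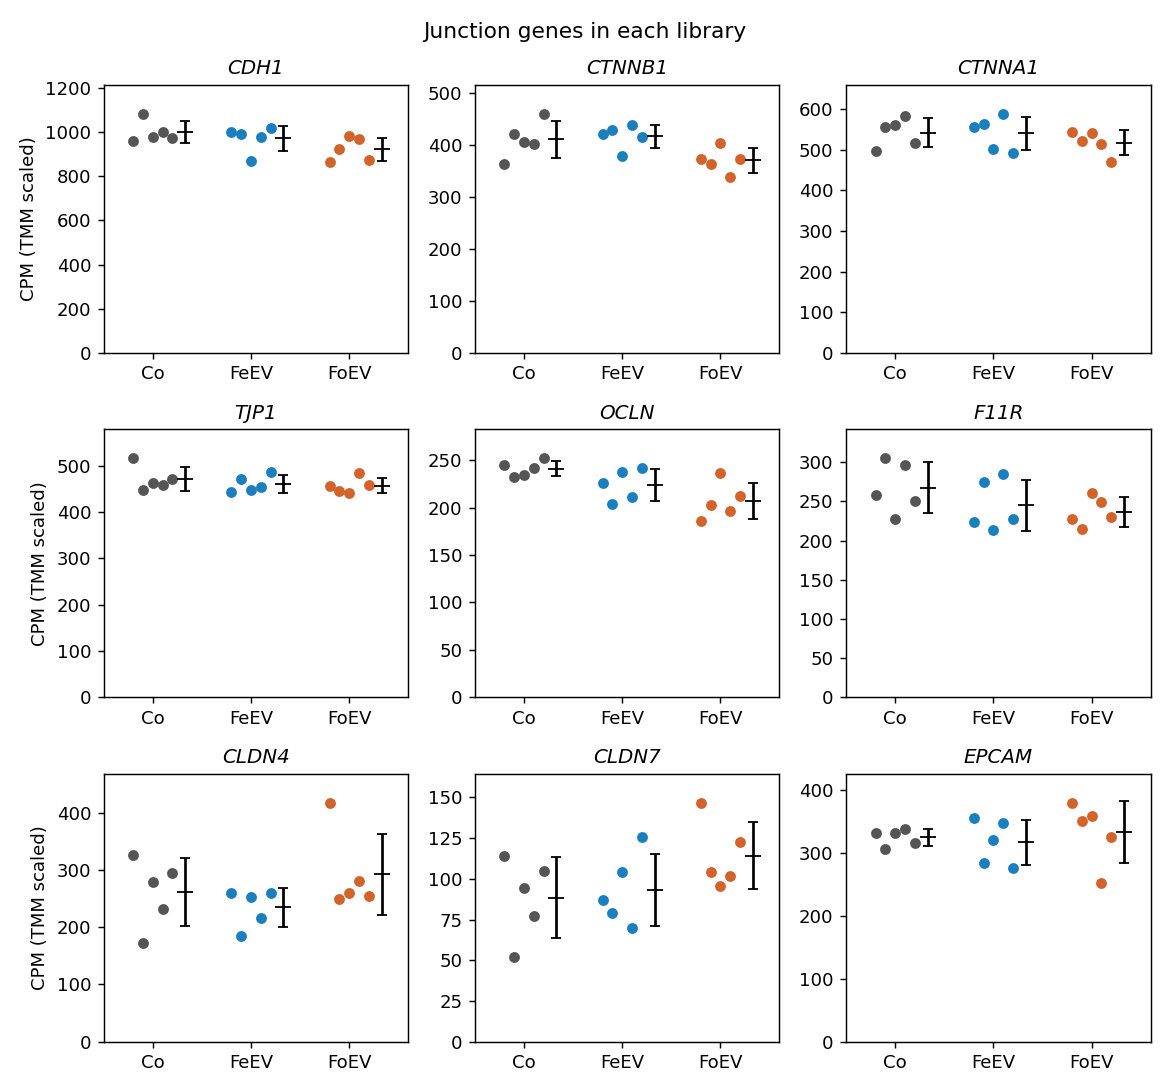
CPM after TMM scaling (vertical axes, each starting at 0) of the 9 junction genes in the 5 libraries of Co (grey), FeEV (blue) and FoEV (orange), in the order of the replicate numbers, with the mean and SD at the right of each group. OCLN in FoEV lies below Co in 4 of 5 libraries, and CLDN4 has 1 FoEV library at 418 CPM above all others.

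Among the adherens junction genes, CDH1 (gene ID 282637) was steady. Its level in Co replicates 1 to 5 was 963, 1085, 977, 1003 and 974 CPM, in FeEV 1002, 990.4, 872, 981 and 1018 CPM, and in FoEV 866, 924, 983, 969 and 876 CPM. In FoEV treatment 3 of 5 libraries lay below every Co library, and the other two fell within the Co range. Mean levels of CDH1 were 1000.5 ± 49.5 CPM for Co, 973 ± 58.0 for FeEV and 924 ± 52.7 for FoEV (SD, n = 5). Its log2 fold change was -0.12 for FoEV vs. Co (SE 0.074, 95% interval -0.27 to 0.038, adjusted p = 0.466) and -0.041 for FeEV vs. Co (SE 0.074, adjusted p = 0.99995). The interval thus reached from a level 0.830 times that of Co to one 1.03 times as high.

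CTNNB1 (gene ID 539003), which encodes β-catenin, the link of E-cadherin to α-catenin and also the transcriptional effector of Wnt signalling, had its lowest levels in FoEV-treated embryos. It stood at 365, 421, 407, 401 and 461 CPM in Co, at 422, 429, 379.7, 439 and 416 CPM in FeEV, and at 373, 364, 404, 338 and 374 CPM in FoEV. In FoEV treatment 4 of 5 libraries lay below every FeEV library, whereas only 2 of 5 lay below every Co library. The log2 fold change of FoEV vs. FeEV was -0.17 (SE 0.080, 95% interval -0.33 to -0.0043, unadjusted p = 0.0447, adjusted p = 0.577), from means of 371 ± 23.6 and 417 ± 22.6 CPM. Under 8 of 21 alternative settings the unadjusted p was under 0.05, and it ranged from 0.0201 to 0.103. For FoEV vs. Co the log2 fold change was -0.15 (SE 0.080, adjusted p = 0.385), and for FeEV vs. Co it was 0.021 (SE 0.080, adjusted p = 0.99995).

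CTNNA1 (gene ID 526848), whose product α-catenin binds actin, differed least among the adherens junction genes. Levels were 497, 556, 560.5, 582 and 516 CPM in Co, 556, 563, 503, 589 and 492 CPM in FeEV, and 545, 521, 541, 513 and 469 CPM in FoEV. The ranges overlapped almost wholly, and 1 FoEV library, replicate 5, was below every Co library. Log2 fold changes were -0.067 for FoEV vs. Co (adjusted p = 0.717), -0.0053 for FeEV vs. Co (adjusted p = 0.99995) and -0.061 for FoEV vs. FeEV (adjusted p = 0.837).

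TJP1 (gene ID 407102), the gene of the scaffold ZO-1, was the most even of the 9 genes, with 1.17 times between its highest and lowest library. Co libraries held 517, 447, 462, 459.6 and 472 CPM, FeEV libraries 443, 472, 448, 453 and 487 CPM, and FoEV libraries 456, 445, 441, 484 and 459.6 CPM. The highest library was Co replicate 1, and the other 14 lay between 441 and 487 CPM. Log2 fold changes were -0.045 for FoEV vs. Co (SE 0.071, 95% interval -0.19 to 0.10), -0.033 for FeEV vs. Co and -0.012 for FoEV vs. FeEV, with adjusted p-values of 0.799 or more.

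OCLN (gene ID 512405), which encodes the membrane protein occludin, had the smallest p-value of the 9 genes. Its libraries were at 245, 232, 234, 242 and 252 CPM in Co, 226, 203.5, 238, 211 and 242 CPM in FeEV, and 186, 203, 237, 196 and 213 CPM in FoEV. All Co libraries were at 232 CPM or above, 4 of 5 FoEV libraries lay below them, and FoEV replicate 3 fell within the Co range. Of the FeEV libraries, 3 of 5 were below every Co library. Mean levels of OCLN were 241 ± 8.11 CPM for Co, 224 ± 16.6 for FeEV and 207 ± 19.4 for FoEV (SD, n = 5). Its log2 fold change for FoEV vs. Co was -0.22 (SE 0.082, 95% interval -0.39 to -0.051), with an unadjusted p of 0.0134 and an adjusted p of 0.214. Of 21 alternatives, 19 gave an unadjusted value under 0.05, the exceptions being counts thinned to the smallest library total (0.0535) and the block by library number (0.0610). Adjusted values stayed between 0.103 and 0.405. For FeEV vs. Co the log2 fold change was -0.11 (SE 0.083, adjusted p = 0.99995), and for FoEV vs. FeEV it was -0.12 (SE 0.082, adjusted p = 0.689).

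F11R (gene ID 281258), which encodes an adhesion molecule of the immunoglobulin superfamily at the tight junction, was spread within each treatment. Libraries stood at 258, 305, 228, 296 and 251 CPM in Co, at 224, 275, 213, 286 and 228 CPM in FeEV, and at 227, 215, 261, 249.7 and 229.8 CPM in FoEV. Replicates 2 and 4 were the highest libraries of both Co and FeEV, and the highest FoEV library, replicate 3, lay below them. Its log2 fold changes were -0.18 for FoEV vs. Co (SE 0.10, adjusted p = 0.407), -0.13 for FeEV vs. Co (SE 0.10, adjusted p = 0.99995) and -0.049 for FoEV vs. FeEV (SE 0.10, adjusted p = 0.901).

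The claudins, the proteins that form the strands of the tight junction, varied most. CLDN4 (gene ID 414921) stood at 326, 173, 279, 232 and 295 CPM in Co, at 261, 185, 253, 216 and 259.5 CPM in FeEV, and at 418, 249, 260.1, 281 and 254 CPM in FoEV. FoEV replicate 1 was the highest library of all, while the other FoEV libraries lay within the Co range. Fitted differences of CLDN4 on the log2 scale were 0.16 for FoEV vs. Co (SE 0.17, 95% interval -0.19 to 0.52, adjusted p = 0.676) and 0.32 for FoEV vs. FeEV (SE 0.17, 95% interval -0.043 to 0.67, adjusted p = 0.608). Without FoEV replicate 1 these values were -0.0014 and 0.15. For FeEV vs. Co the value was -0.15 (SE 0.17, 95% interval -0.51 to 0.21, adjusted p = 0.99995), opposite in sign to FoEV vs. Co, and it ranged from -0.27 to -0.045 over the alternatives. Leaving out Co replicate 2, the lowest library, moved the FoEV vs. Co value to 0.047.

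CLDN7 (gene ID 512975) had the largest log2 fold change of the 9 genes in FoEV vs. Co. Co libraries held 114, 52.0, 94.2, 77.1 and 105 CPM, FeEV libraries 87.0, 79.1, 104, 69.7 and 125.4 CPM, and FoEV libraries 147, 104, 95.9, 101 and 122 CPM. In FoEV treatment 2 of 5 libraries were above every Co library, and all 5 were above Co replicates 2, 3 and 4. Averages were 88.5 ± 24.6 CPM for Co, 93.1 ± 22.1 for FeEV and 114 ± 20.8 for FoEV (SD, n = 5). In FoEV vs. Co the log2 fold change was 0.37 (SE 0.20, 95% interval -0.042 to 0.79, adjusted p = 0.385), and it was 0.23 without Co replicate 2 and 0.26 without FoEV replicate 1. It was 0.084 for FeEV vs. Co (SE 0.20, adjusted p = 0.99995) and 0.29 for FoEV vs. FeEV (SE 0.19, adjusted p = 0.681).

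EPCAM (gene ID 514039) was tight in control embryos and looser in treated ones. Levels were 332, 307, 332, 339 and 316 CPM in Co, 356, 284, 321, 349 and 277 CPM in FeEV, and 381, 352, 359.8, 252 and 326 CPM in FoEV. The highest library, FoEV replicate 1, and the lowest, FoEV replicate 4, belonged to the same treatment. Between libraries the coefficient of variation was 4.05% for Co, 11.5% for FeEV and 14.9% for FoEV, and the difference in spread was not tested. Log2 fold changes were 0.039 for FoEV vs. Co (SE 0.10, adjusted p = 0.885), -0.036 for FeEV vs. Co (SE 0.10, adjusted p = 0.99995) and 0.076 for FoEV vs. FeEV (SE 0.10, adjusted p = 0.846).

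**Figure D2:**
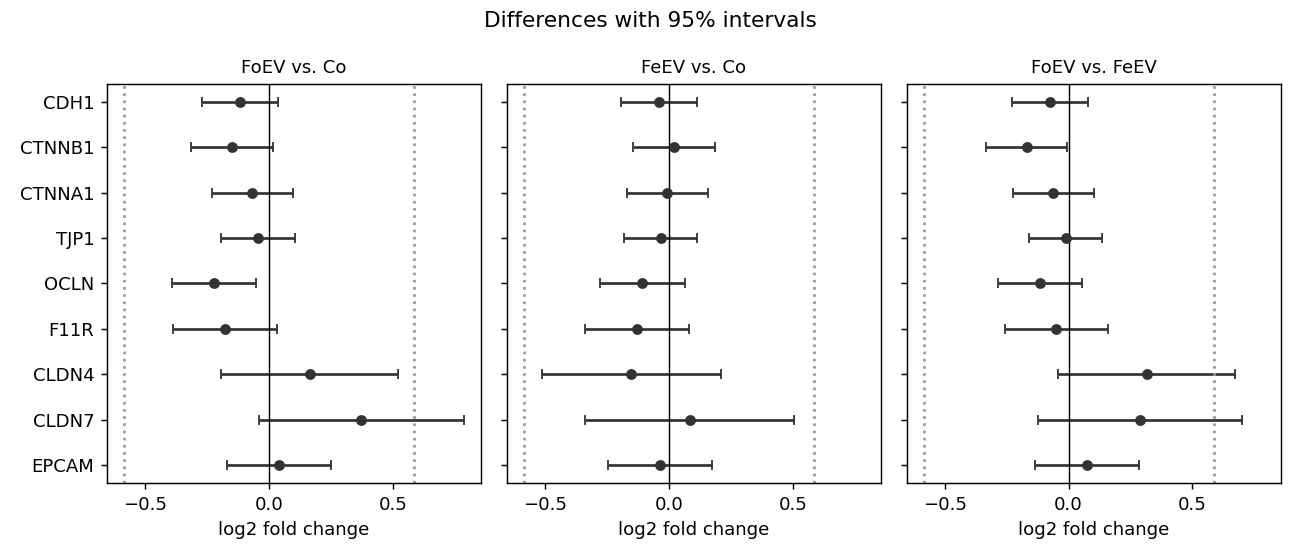
Log2 fold changes (horizontal axis) of the 9 junction genes in the 3 comparisons, with 95% intervals from the fit across all genes. Dotted lines mark a fold change of 1.5 in each direction, and only OCLN in FoEV vs. Co and CTNNB1 in FoEV vs. FeEV have intervals without 0.

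The intervals show how large a difference these pools leave room for. For FoEV vs. Co, 8 of 9 intervals lay within a fold change of 1.5 in both directions, and CLDN7 was the exception. All 9 did so for FeEV vs. Co, and 7 of 9, all but CLDN4 and CLDN7, for FoEV vs. FeEV. Over all genes 6500 of 10832 intervals lay within 1.5-fold for FoEV vs. Co. The median log2 fold change of the 9 genes was -0.067 for FoEV vs. Co (all genes, 0.015), -0.036 for FeEV vs. Co (all genes, 0.0039) and -0.049 for FoEV vs. FeEV (all genes, 0.0092). Values below 0 were found for 6 of 9 genes in FoEV vs. Co, where 47.7% of all genes were below 0, for 7 of 9 in FeEV vs. Co (49% of all genes) and for 6 of 9 in FoEV vs. FeEV (48.2% of all genes). The comparisons share libraries, so these counts are not independent of each other.

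The order of the treatment means was Co above FeEV above FoEV for CDH1, CTNNA1, TJP1, OCLN and F11R, an order seen in 21.2% of all genes. CTNNB1 was ordered FeEV above Co above FoEV. The means of CLDN4 and EPCAM were highest in FoEV and lowest in FeEV, and CLDN7 was ordered FoEV above FeEV above Co, as were 24.0% of all genes. No neighbours in these orders differed at the adjusted threshold, so the orders are descriptions of the means.

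How steady the levels were between pools differed from gene to gene. The biological coefficient of variation, the fitted spread between pools beyond counting error, was 8.76% for TJP1, 9.21% for CDH1, 9.64% for CTNNA1, 9.66% for CTNNB1, 9.76% for OCLN, 11.8% for F11R and 11.95% for EPCAM. All 7 were below the trend for genes of their level, which was between 13.0% and 13.1%. CLDN4 at 18.8% and CLDN7 at 21.2% were above it, the trend being 13.1% and 13.5% for these genes. The highest of the 15 libraries was 2.41 times the lowest for CLDN4 and 2.83 times for CLDN7, compared with 1.51 times or less for the other genes. For both claudins the lowest library was Co replicate 2 and the highest FoEV replicate 1.

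**Figure D3:**
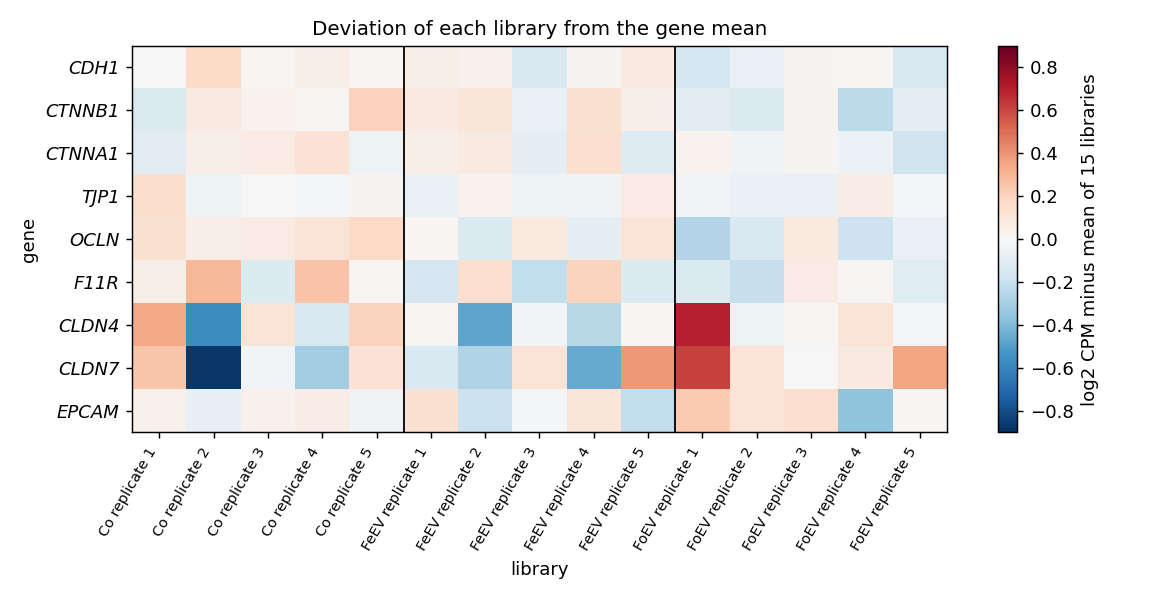
Deviation of each library from the mean of 15 libraries in log2 CPM (colour), for the 9 junction genes (rows) in the libraries of Co, FeEV and FoEV (columns, separated by lines). CLDN4 and CLDN7 carry the strongest colours, low in Co replicate 2 and high in FoEV replicate 1, whereas the other rows stay pale.

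CLDN4 and CLDN7 varied together between pools of the same treatment. Over the deviations of the 15 libraries from their treatment means, Pearson's r was 0.848 (permutation within treatments, p = 0.00075) and Spearman's rho 0.779 (permutation p = 0.00183). With 36 pairs of the 9 genes examined, the Benjamini-Hochberg adjusted values were 0.0270 for r and 0.0659 for rho. Without the 2 libraries farthest from the median of CLDN4, r was 0.754. This was the only pair whose r had an adjusted p under 0.05. F11R had a negative r of -0.715 to CLDN7, which did not pass the adjustment (permutation p = 0.00968, adjusted p = 0.159; rho = -0.689, permutation p = 0.0162, adjusted p = 0.223), and r was -0.571 without the 2 libraries farthest from the median of F11R. Over all pairs, 18 values of r were positive and 18 negative, with a median of -0.0029.

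**Figure D4:**
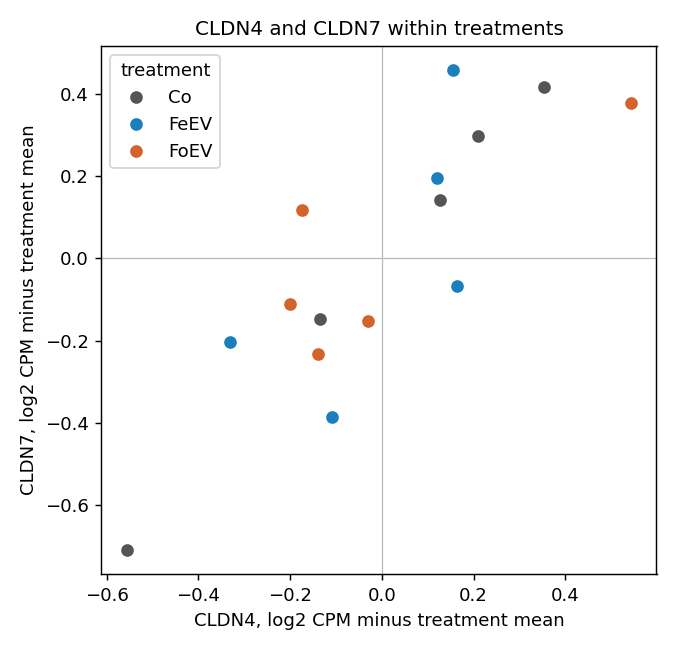
Deviation from the treatment mean in log2 CPM of CLDN4 (horizontal axis) and CLDN7 (vertical axis), 1 point per library, coloured by treatment. The 15 points run from the lower left, Co replicate 2, to the upper right with r = 0.848.

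The summed level of trophectoderm markers, of which KRT8 (4720 CPM on average) and KRT18 (3277 CPM) made up the greater part, moved with these libraries in Co and FeEV but not throughout FoEV. Within Co it was lowest in replicates 4 (7156 CPM) and 2 (7490 CPM), and within FeEV in replicates 2 (7706 CPM) and 4 (8626 CPM), which are the libraries with low claudins and high F11R. FoEV replicate 1 had the highest sum (12418 CPM) and also the largest total of counts. The other FoEV libraries followed only in part. Replicate 2, with the lowest sum (9129 CPM), had the lowest CLDN4 of the treatment (249 CPM) but also its lowest F11R (215 CPM). Replicate 5 came next to replicate 1 in the sum (11037 CPM) and in CLDN7 (122 CPM), but its CLDN4 (254 CPM) was below that of replicates 1, 3 and 4. Replicate 4 had a sum of 9692 CPM and a CLDN4 of 281 CPM, above replicates 2, 3 and 5. Replicate 3, with a sum of 10869 CPM between those of the others, had the highest F11R (261 CPM) and the lowest CLDN7 (95.9 CPM). By treatment the sum ranged from 7156 to 9810 CPM in Co, from 7706 to 11701 CPM in FeEV and from 9129 to 12418 CPM in FoEV. In FoEV vs. Co, 9 of 10 of these markers had a log2 fold change above 0 (52.3% of all genes), with a median of 0.20. None had an adjusted p under 0.05, and the marker below 0 was TFAP2A (-0.49). Keratin 18 (KRT18) stood at 3929 ± 520 CPM in FoEV and 2684 ± 404 in Co (log2 fold change 0.55, SE 0.13, adjusted p = 0.0818). The part of the marker sum, library total and single libraries in the levels of CLDN4, CLDN7 and F11R was not tested.

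For each junction gene, the gene with the most similar deviations from the treatment means was looked up among 6500 genes with at least 20 CPM on average. These are the largest of many values and are given as a description over 15 libraries. CLDN7 was closest to LOXL2 (r = 0.988), which encodes a lysyl oxidase, and F11R to SASH1 (r = 0.962), which encodes a scaffold protein. CLDN4 was closest to NECTIN2 (r = 0.925), itself an adhesion molecule of the adherens junction. The remaining pairs were TJP1 with LOC112442867 (r = 0.917), CTNNA1 with ZFAND5 (r = 0.905), EPCAM with MOB4 (r = 0.900), CDH1 with CSTF2T (r = 0.896), OCLN with FKBP9 (r = 0.873) and CTNNB1 with CERS5 (r = 0.846).

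Of 88 other junction genes listed by function, 61 were in the filtered table. For FoEV vs. Co 34 had a log2 fold change above 0 and 27 below, with a median of 0.020, and 0 of 61 were called at an adjusted p under 0.05. The unadjusted threshold of 0.05 was passed by 6 higher and 6 lower genes, 19.7% in all, compared with 15.1% of all genes. For FeEV vs. Co 1 was higher and 2 lower (4.92%, all genes 4.15%), and for FoEV vs. FeEV 2 were higher and 3 lower (8.20%, all genes 8.52%), with 0 of 61 called in either. These shares were near those of all genes.

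Claudins beyond the 2 followed here were few. Of 21 others, 7 passed the filter, among them CLDN6 (533 CPM on average), CLDN23 (42.8 CPM) and CLDN12 (15.4 CPM). CLDN6, an embryonic and early epithelial claudin, stood at 617, 425, 506, 429 and 523 CPM in Co and at 645, 488, 601, 653 and 591 CPM in FoEV. Of the FoEV libraries, 2 of 5 were above every Co library and none was below the Co range (log2 fold change 0.25, SE 0.11, unadjusted p = 0.0293, adjusted p = 0.271). FoEV vs. FeEV gave 0.24 (unadjusted p = 0.0333, adjusted p = 0.556), with FeEV at 468, 448, 552, 469 and 575 CPM. CLDN23 varied between libraries, at 32.3 ± 13.9 CPM in FeEV and 53.6 ± 17.1 in Co, and the 95% interval of its log2 fold change ran from -1.499 to 0.11. A further 14 claudins were outside the filtered table, 4 of them (CLDN14, CLDN19, CLDN25 and CLDN34) without a read in any library, and CLDN9 had the most with 171 reads over 15 libraries.

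Of 13 other membrane proteins of the tight junction 9 were tested. The polarity protein CRB3 and tricellulin (MARVELD2) were at 111 and 96.1 CPM on average, and had 95% intervals that held 0 in every comparison. ILDR1, a protein of tricellular contacts, was at 6.96 ± 1.57 CPM in FoEV and 4.23 ± 1.498 in Co (unadjusted p = 0.0249, adjusted p = 0.257). IGSF5, a relative of F11R, was at 8.32 ± 1.79 CPM in FeEV and 11.9 ± 3.62 in Co (unadjusted p = 0.0487, adjusted p = 0.99995).

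Scaffold and polarity proteins of the tight junction made up the largest list, with 25 of 30 tested. TJP3, which encodes the scaffold ZO-3, was at 126 ± 28.1 CPM in FoEV and 102 ± 7.69 in Co (log2 fold change 0.30, SE 0.12, unadjusted p = 0.0212, adjusted p = 0.240). Lower in FoEV at an unadjusted p under 0.05 were PALS1 (log2 fold change -0.23) and LIN7C (-0.29), which form part of the Crumbs polarity complex, the polarity GTPase CDC42 (-0.21) and the angiomotin family member AMOTL2 (-0.34), with adjusted p-values from 0.216 to 0.309. PALS1 and LIN7C were lower also in FoEV vs. FeEV (-0.22 and -0.37, adjusted p = 0.578 and 0.450). AMOT, the gene of angiomotin, was at 274 ± 39.2 CPM in FoEV, 261 ± 39.6 in FeEV and 249 ± 53.5 in Co.

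CGNL1, which encodes paracingulin, a protein shared by tight and adherens junctions, showed the largest difference in FeEV-treated embryos. Its libraries stood at 4.01, 4.05, 4.19, 3.21 and 5.75 CPM in Co, at 8.94, 7.80, 13.5, 10.5 and 8.66 CPM in FeEV, and at 4.63, 6.56, 8.82, 6.68 and 5.72 CPM in FoEV. Every FeEV library was above every Co library. In FeEV vs. Co the log2 fold change of CGNL1 was 1.21 (SE 0.25, unadjusted p = 7.05e-05, adjusted p = 0.382), from 8 to 43 reads per library. It was 0.60 for FoEV vs. Co (adjusted p = 0.260) and -0.61 for FoEV vs. FeEV (adjusted p = 0.501). The robust likelihood ratio test gave an adjusted p of 0.0203 for FeEV vs. Co.

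**Figure D5:**
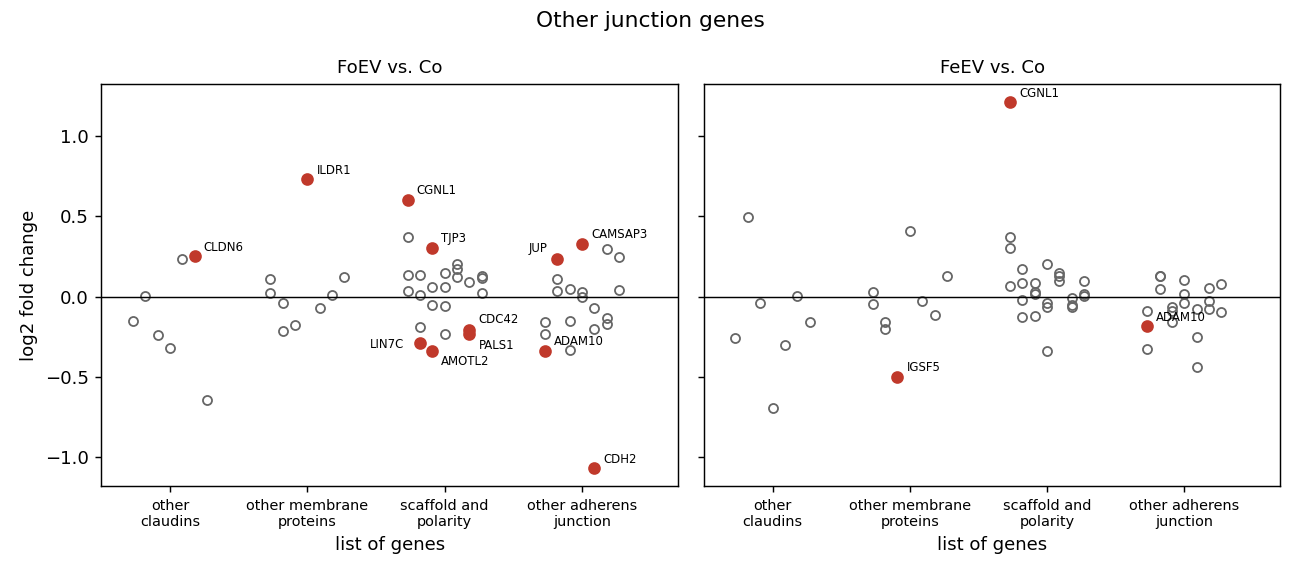
Log2 fold changes (vertical axis) of 61 other junction genes by list (horizontal axis), for FoEV vs. Co (left) and FeEV vs. Co (right). Filled, named points have an unadjusted p under 0.05, 12 on the left and 3 on the right, and none has an adjusted p under 0.05.

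Of 24 other adherens junction genes 20 were tested. ADAM10, the protease that sheds the outer part of E-cadherin, was at 283, 296, 324, 291 and 311 CPM in Co, at 264, 268, 258, 253 and 281 CPM in FeEV, and at 226, 258, 235, 194 and 279 CPM in FoEV. Every FeEV and every FoEV library lay below every Co library. Log2 fold changes of ADAM10 were -0.34 for FoEV vs. Co (SE 0.089, unadjusted p = 0.000979, adjusted p = 0.118) and -0.19 for FeEV vs. Co (SE 0.089, unadjusted p = 0.0495, adjusted p = 0.99995), both against the same Co libraries. Under the robust likelihood ratio test and the Wald test of DESeq2 the adjusted p for FoEV vs. Co was 0.0237 and 0.0146.

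Plakoglobin (JUP), the relative of β-catenin, was at 490.4, 354, 455, 389 and 424 CPM in Co and at 595, 448, 479, 491 and 472 CPM in FoEV (log2 fold change 0.23, SE 0.10, unadjusted p = 0.0341, adjusted p = 0.286). CAMSAP3, which anchors microtubules at the adherens junction, had a log2 fold change of 0.33 (unadjusted p = 0.0164, adjusted p = 0.225). N-cadherin (CDH2) was at 4.27 ± 2.75 CPM in FoEV and 9.12 ± 3.95 in Co (log2 fold change -1.07, SE 0.47, unadjusted p = 0.0347, adjusted p = 0.289). Without a filter on low counts its adjusted p was 0.0453. The adhesion molecule NECTIN2 was higher in FoEV vs. FeEV (113 ± 18.7 against 89.4 ± 12.8 CPM, unadjusted p = 0.0251, adjusted p = 0.538). p120-catenin (CTNND1), which stabilises E-cadherin at the membrane, was at 430.1 ± 33.3 CPM in FoEV, 451 ± 36.8 in FeEV and 480.0 ± 53.3 in Co, and the GTPase RHOA at 393 ± 21.8, 398 ± 28.8 and 393 ± 18.5 CPM, with intervals that held 0. Afadin (AFDN), named after its values were seen, had FeEV libraries from 333 to 347 CPM above Co libraries from 288 to 331 CPM, with a 95% interval that held 0.

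Of 16 transcriptional regulators of CDH1, 12 were tested and 0 called. None had an unadjusted p under 0.05 against Co. The epithelial factors OVOL1 (log2 fold change 0.38, adjusted p = 0.564) and ELF3 (0.60, adjusted p = 0.544) were higher in FoEV vs. FeEV at an unadjusted p under 0.05. In that comparison 11 of 12 regulators had a log2 fold change above 0, where 51.8% of all genes did. Among them were SNAI1 (0.34 to 0.71 over the alternatives) and ZEB1 (0.11 to 0.56), while GRHL2 was below 0 (-0.40 to -0.18). Mean levels were 217 CPM for GRHL1, 137 CPM for CTBP2 and 42.2 CPM for GRHL2. The repressors SNAI2, TWIST1, TWIST2 and ZEB2 were outside the filtered table, with 34 reads or fewer each over all libraries.

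Of 12 genes of β-catenin turnover and its Wnt control, 12 were tested and 0 called. The Wnt co-receptor LRP5 was at 19.3, 20.2, 19.7, 19.3 and 21.8 CPM in Co, at 26.8, 27.1, 27.8, 22.3 and 28.5 CPM in FeEV, and at 32.6, 29.5, 23.7, 39.4 and 23.4 CPM in FoEV. All treated libraries were above all Co libraries. For LRP5 the log2 fold change was 0.56 for FoEV vs. Co (SE 0.15, unadjusted p = 0.00083, adjusted p = 0.114) and 0.41 for FeEV vs. Co (SE 0.15, unadjusted p = 0.0118, adjusted p = 0.99995), and the comparisons share the Co libraries. For FoEV vs. Co the adjusted p was 0.0321 under the robust likelihood ratio test and 0.0479 under DESeq2. Its paralog LRP6 was at 102 ± 13.7 CPM in FoEV and 124 ± 21.1 in FeEV (log2 fold change -0.28, unadjusted p = 0.0242, adjusted p = 0.538). APC and CSNK1A1, parts of the complex that marks β-catenin for degradation, were at 176 ± 20.7 and 506 ± 28.9 CPM in FoEV against 183 ± 10.5 and 523 ± 49.1 CPM in Co.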

How the data were processed

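Total RNA of 15 pools of bovine blastocysts was sequenced. The deposited values are counts of reads per gene, which the authors did not normalize, in a table of 34773 genes and in a table of the 10832 genes they kept after filtering on low counts. Reads were mapped to ARS-UCD1.2 with the NCBI annotation. The methods name QuasR Qcount in Galaxy as the counter, while the submitters' processing notes list Trim Galore 0.4.3.1, HISAT2 2.1.0 and featureCounts 1.6.3, so the counter, its strand setting and its handling of reads shared by related genes are uncertain. The labels give 7 days of culture and the methods a longer one. Groups came from the sample titles. No 2 libraries of the same treatment agreed within sampling noise.

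Filtered counts were scaled by TMM in edgeR 4.0.16 (R 4.3.3), and glmQLFit with robust estimation over all 15 libraries, with treatment as the only factor, was followed by glmQLFTest. The common biological coefficient of variation was 0.159. Log2 CPM used a prior count of 2. The alternatives were other scalings (DESeq2 size factors, upper quartile), filters (filterByExpr, none), tests (robust dispersion with a likelihood ratio test, the study's choice, and DESeq2 1.42.0) and blocks, the libraries of the compared treatments alone, removal of rRNA genes (15.5% to 28.2% of counts), counts thinned to 2117202 per library, and each library left out. That made 21 settings per comparison. Scripts were tested on simulated data. Correlations used 100000.0 permutations within treatments.

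The members and the lists were chosen with earlier results of these data known. Named genes are all 9 members, genes of the lists with an unadjusted p under 0.05 in any comparison, the 3 with the highest mean CPM of each list and, outside the filter, those with the most reads. Of the genes this rule names, 2 are not reported here. Of 175 listed symbols 173 were matched to gene IDs. Transcript lengths and sequences were not used here. The precision of CPM is limited by counts, since 3 reads corresponded to between 0.748 and 1.42 CPM.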

Additional observations from a re-analysis of the deposited data

Results flagged for a closer look

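Each of the 9 junction genes was examined in each treatment, 27 groups of 5 libraries, for a library that stands apart by Dixon's test at its 95% critical value of 0.71. Chance marks about 1 in 20 such groups. CDH1 in FeEV replicate 3 was at 872 CPM, while the other FeEV libraries lay between 981 and 1018 CPM. CLDN4 in FoEV replicate 1 was at 418 CPM, while the other FoEV libraries lay between 249 and 281 CPM.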

How the results depend on the processing

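Under all 21 alternatives, 0 of 9 junction genes were called in each of the 3 comparisons, and the direction of the differences in FoEV vs. Co stayed the same for 7 genes. The exceptions when single libraries were left out were CLDN4 (range -0.0014 to 0.26, negative without FoEV replicate 1) and EPCAM (-0.012 to 0.12, negative without FoEV replicate 1). In FeEV vs. Co the range over left-out libraries held both signs for CTNNB1 (-0.019 to 0.065), TJP1 (-0.054 to 0.0021), CTNNA1 (-0.038 to 0.027), CLDN7 (-0.060 to 0.19) and EPCAM (-0.082 to 0.0091), and in FoEV vs. FeEV for F11R (-0.095 to 0.011) and TJP1 (-0.033 to 0.0095). TJP1 in FoEV vs. FeEV was 0.0017 with upper quartile scaling, and CLDN7 in FeEV vs. Co was -0.020 with the robust likelihood ratio test. The cause of these reversals was not tested. Of the other junction genes, 1 was called in FoEV vs. Co without a filter (CDH2), 1 with the robust test and 1 with DESeq2 (ADAM10 in both), and 1 in FeEV vs. Co with the robust test (CGNL1). With its own test and thresholds, the study lists ADAM10 and NANOG as lower and LRP5 and KRT18 as higher in FoEV-treated embryos than in control. It lists CGNL1 as higher in FeEV-treated embryos than in control. Over all genes, FoEV vs. Co gave 1 call, compared with 311 with the robust test, 138 with DESeq2 and 173 without a filter. FeEV vs. Co gave 0, and 6, 1 and 13 with these settings, and FoEV vs. FeEV 0, and 31, 3 and 22.

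With the replicate number of the titles as a block, 0 junction genes were called, and 2, 0 and 3 of 9 had an unadjusted p under 0.05 in FoEV vs. Co, FeEV vs. Co and FoEV vs. FeEV, while the calls over all genes were 57, 0 and 0. The numbers were not taken as a pairing in the main fit, and whether same-numbered pools shared a culture was not settled. Deviations of same-numbered libraries correlated over 0.1 in 1, 3 and 3 of 5 pairs, and 2, 5 and 4 of 10 libraries correlated best with their own number. Their mean r was 0.034, 0.14 and 0.19 in these comparisons, against -0.0084, -0.034 and -0.046 for libraries with different numbers. These values use the replicate numbers of the titles. With the library number of the descriptions as a block, CTNNB1 in FeEV vs. Co was -0.029.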

Other observations

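Markers of other cell types were listed to describe what the pools held. Inner cell mass markers summed to between 554 and 722 CPM in Co, 549 and 716 CPM in FeEV and 539 and 819 CPM in FoEV. Of 8 tested, 4 had a log2 fold change above 0 and 4 below in FoEV vs. Co, with a median of 0.0082, and POU5F1 and UTF1 had values of 0.21 and 0.43 with unadjusted p-values over 0.05. NANOG, a pluripotency factor, was at 80.4 ± 19.9 CPM for Co, 52.1 ± 13.2 for FeEV and 45.0 ± 16.7 for FoEV (SD, n = 5), with an adjusted p of 0.178 for FoEV vs. Co. Hypoblast markers summed to between 828 and 1202 CPM in Co, 840 and 1066 CPM in FeEV and 823 and 1033 CPM in FoEV. Of 8 tested, 2 had a log2 fold change above 0 and 6 below in FoEV vs. Co, with a median of -0.14. The lowest value was that of RSPO3, a Wnt agonist, at 10.4 ± 1.68 CPM in FoEV and 17.7 ± 7.13 in Co (adjusted p = 0.162). GATA4 (0.32) and COL4A1 (0.067) were above 0, and GATA6 was at -0.028. Cumulus and granulosa markers summed to between 108 and 307 CPM with overlapping ranges in the 3 treatments, of which HSD3B1 made up 157 CPM on average. Only 4 of these 10 passed the filter: HSD3B1, CYP19A1 (21.4 CPM on average), FSHR (8.71 CPM) and STAR (5.30 CPM). Over all libraries, PTX3, INHA, AMH and TNFAIP6 had between 1 and 13 reads each, FOXL2 had 47 and HAS2 had 67. In FoEV vs. Co, CYP19A1 had a log2 fold change of 0.48 (adjusted p = 0.389), and the other 3 were below 0. The cell type behind the HSD3B1 reads was not tested. In FeEV vs. Co 1 of the 4 was above 0 and 3 were below. FSHR was at 7.12 ± 1.24 CPM in FeEV and 10.5 ± 3.09 in Co (unadjusted p = 0.0254, adjusted p = 0.99995). Oviduct epithelium markers summed to between 9.28 and 27.7 CPM, and 2 of 10 (PAX8 and MSX1) passed the filter. Of trophectoderm factors, GATA3 was at 237 ± 13.6 CPM in FoEV and 207 ± 11.9 in Co, every FoEV library above every Co library (log2 fold change 0.19, adjusted p = 0.238). GATA2 was at 140.03 ± 17.8 and 110.2 ± 24.6 CPM (adjusted p = 0.276) and keratin 8 (KRT8) at 5088 ± 622 and 4266 ± 505 CPM (adjusted p = 0.289). TFAP2A went the other way, at 17.4 ± 6.73 and 24.7 ± 7.29 CPM (adjusted p = 0.444). KRT19 and DAB2 had log2 fold changes of 0.093 and 0.071.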
